A study of Homo sapiens with 14 samples.

Results

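The cytosolic ribosomal protein genes code for the proteins of the large (60S) and small (40S) subunits of the ribosome. They were taken by symbol, as genes named RPL or RPS with a number and an optional A or X, together with RPLP0, RPLP1, RPLP2 and RPSA, which left out pseudogenes and the RPS6K kinases. This gave 77 of 35073 gene symbols listed in any of the files, 46 of the 60S and 31 of the 40S subunit. Ribosomal proteins are built into the ribosome in fixed proportions, so their genes are transcribed at high and fairly even rates in growing cells. Most of their mRNAs begin with a C followed by a run of pyrimidines, the 5′ terminal oligopyrimidine (TOP) motif, through which the growth kinase mTOR and the binding protein LARP1 control their translation. Their mRNA level and their translation can therefore move apart, and RNA-seq shows the first of these only.

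The study treated 2 established human cancer cell lines with ursolic acid (UA), a triterpenoid of fruits and herbs, or with digoxin, a foxglove glycoside that inhibits the Na+/K+-ATPase, and asked which gene programs controlled by the nuclear receptor RORγ responded. C4-2B is a prostate cancer line derived from LNCaP and HCC70 is a triple-negative breast cancer line, and the labels give both as WT. C4-2B cells received vehicle or 10 µM UA in the UA series and vehicle or 100 nM digoxin in the digoxin series, and HCC70 cells received vehicle, 5 µM UA or 10 µM UA, each for 24 or 48 h. This makes 8 C4-2B and 6 HCC70 libraries with 1 library per condition, so no value below has an error or a p-value, and the sources used here do not name the vehicle.

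Levels are FPKM, mapped fragments divided by transcript length and by the size of the library. The depth of the libraries is not given in the sources used here, so no counting error is stated. A log2 ratio is the log2 of treated over vehicle of the same line, series and time after adding 0.1 FPKM to both, and genes above 1 FPKM in either library were compared. FPKM is a share of the library, so less of an mRNA per cell and more of all other RNA cannot be told apart. Of the prostate markers, KLK3 ran from 989 to 1971 FPKM and KLK2 from 114 to 451 in C4-2B, and both were at most 0.63 FPKM in HCC70. TMPRSS2 ran from 55.3 to 105.5 FPKM in C4-2B and from 38.6 to 47.6 in HCC70. The basal markers KRT5, KRT14, KRT6B and EGFR summed to 782 to 2671 in HCC70 and to 23.5 to 41.2 in C4-2B. Nearly all of the latter was EGFR, which does not separate the lines (18.1 to 39.9 FPKM in C4-2B and 32.0 to 43.4 in HCC70). ESR1 and PGR were at most 0.71 FPKM in any library. Genes of the mitochondrial genome held 24.6 to 44.4% of the summed FPKM, which differs enough between libraries to move the share left for all other genes.

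The first bases after an annotated start of the members on which the results turn are given here because the TOP motif lies there. Each line has the last 20 bases before the start and the first 10 bases of the transcript, from RefSeq promoters on GRCh38.p14, and capitals mark the pyrimidine run that begins at the first transcribed base.
RPL13A: ccctgcgacaaaacctcctcCTTTTCCaag
RPL28: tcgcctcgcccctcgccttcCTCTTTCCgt
RPS27: gcaggatttccgctttcgctCCTTTCCggc
RPL3: gacccgtaaggccgaccggcCTCTaccggc
RPLP0: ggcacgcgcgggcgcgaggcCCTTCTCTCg
RPS6: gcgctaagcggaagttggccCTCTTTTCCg
RPL41: gtagacggaacttcgcctttCTCTCggcct
RPS29: ttttcccccgagcgcgcagcTggcagcggt
RPL22: ctgcgtagttcgctcacctcCCTTTCTaac
RPL6: cattgtatttgtatcctcagTgaatcagaa
RPS26: gctgggagacacataacctcgattttcttc
These lie at chr19:49487588-49487617, chr19:55385912-55385941, chr1:153990742-153990771, chr22:39319614-39319643, chr12:120201102-120201131, chr9:19380227-19380256, chr12:56116613-56116642, chr14:49598701-49598730, chr1:6199586-6199615, chr12:112411433-112411462 and chr12:56041898-56041927 in this order, with RPL3, RPLP0, RPS6, RPS29, RPL22 and RPL6 on the minus strand. The annotated starts of RPS29, RPL6 and RPS26 do not open with a C, and the run of RPS26 has no base at all. These starts lie inside the GENCODE bounds of their genes, which begin at chr14:49599164, chr12:112418838 and chr12:56041351. Other starts may be used, so the lines do not show that these mRNAs lack a TOP motif.

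Of the 77 genes, 62 matched the promoter table, which was read at a single annotated start per gene. A first base C followed by C or T through base 5, taken here as TOP-like, was found in 42 of these 62 (67.7%) and in 4.04% of all 27305 promoters of the table. Within 250 bases before and 50 after the start, the GABPA motif (CCGGAAG or CTTCCGG) was present in 33.9% of the members' promoters and 10.7% of all, and the ZBTB33 motif (TCTCGCGA or TCGCGAGA) in 17.7% and 1.19%. The YY1 motif (AAGATGG or CCATCTT) was in 12.9% against 6.06%, and the SP1 motif (GGGCGG or CCGCCC) in 54.8% against 44.6%. The TATA word (TATAAA or TTTATA) was in 5 of 62 of the members' promoters against 3264 of 27305 of all. So few matches cannot show a lower share in the members, and a difference was not tested. Each motif is read on both strands, none of these 5 contains another, and a match describes letters only. The 120 bases before the start are shown for 2 genes that were higher and 2 that were lower in HCC70 cells after 48 h with 10 µM UA, with capitals for any of these motifs.
RPL13A: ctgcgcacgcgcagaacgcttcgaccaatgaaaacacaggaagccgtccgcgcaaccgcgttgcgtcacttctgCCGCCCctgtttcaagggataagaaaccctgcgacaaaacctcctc
RPL28: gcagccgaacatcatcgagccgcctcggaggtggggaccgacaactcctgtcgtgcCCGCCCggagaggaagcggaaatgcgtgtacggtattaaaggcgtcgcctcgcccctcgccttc
RPL22: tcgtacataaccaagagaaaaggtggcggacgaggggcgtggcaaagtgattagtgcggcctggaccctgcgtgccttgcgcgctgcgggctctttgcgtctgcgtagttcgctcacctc
RPS26: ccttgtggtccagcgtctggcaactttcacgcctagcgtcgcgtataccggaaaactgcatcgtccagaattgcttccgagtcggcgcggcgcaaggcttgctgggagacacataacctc
The stretches are chr19:49487488-49487607, chr19:55385812-55385931, chr1:6199596-6199715 on the minus strand and chr12:56041798-56041917. An SP1 word lies in the stretches of RPL13A and RPL28, and none of the 5 motifs in those of RPL22 and RPS26. These genes were picked by their ratios, and the share of promoters with an SP1 word in a stretch of 120 bases was not counted. In the longer window it was in 44.6% of all promoters, and a link of the word to the direction of a gene was not tested.

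All 77 genes were above 1 FPKM in each of the 14 libraries, from 70.7 FPKM for RPL22 in C4-2B with UA at 24 h to 10179 FPKM for RPS2 in C4-2B with digoxin at 48 h. RPS2, a 40S protein near the mRNA entry channel, was the highest member in both lines, with a median of 9326 FPKM over the C4-2B and 6859 over the HCC70 libraries. Also among the 5 highest were RPL41, the smallest ribosomal protein (5568), RPL35 (3608) and RPS27 (3514) in C4-2B, and RPS27 (2157), RPL37 (1986) and RPL28 (1813) in HCC70. The lowest medians in C4-2B were those of RPL22 (128), RPS27A, made as a fusion with ubiquitin (403), RPL9 (547), RPS12 (550.2) and RPL14 (559), and in HCC70 those of RPS13 (99.1), RPL14 (146), RPL9 (163), RPS12 (175) and RPL22 (176). FPKM of such short mRNAs depends on the fragment length correction, and the many processed pseudogenes of these genes can share reads with them, so the order of levels between genes is less certain than a ratio of 1 gene between libraries.

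Ribosomal protein mRNAs made up less of the HCC70 than of the C4-2B libraries. Against the UA-series vehicle of C4-2B, the HCC70 vehicle was lower in 68 of 77 members at 24 h (59.9% of all genes) and in 76 of 77 at 48 h (61.7%), with medians of −1.10 and −1.54 on the log2 scale beside −0.34 and −0.42 over all genes. At least 1.5-fold lower were 57 members at 24 h (42.6% of all genes) and 66 at 48 h (45.3%). The medians nearest to 0 under any scaling were −0.76 and −1.12. Against the digoxin-series vehicle, a comparison added after seeing the data, the medians were −1.17 and −1.98 beside −0.40 and −0.64 over all genes. RPL22 had the highest ratio against the UA-series vehicle, with 204 FPKM in HCC70 and 98.0 in C4-2B at 24 h (1.06) and 172 beside 74.5 at 48 h (1.21). Against the digoxin-series vehicle its ratio was 0.38 at 24 h (157 FPKM in C4-2B) and turned to −0.32 at 48 h (215 FPKM).

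**Figure D1:**
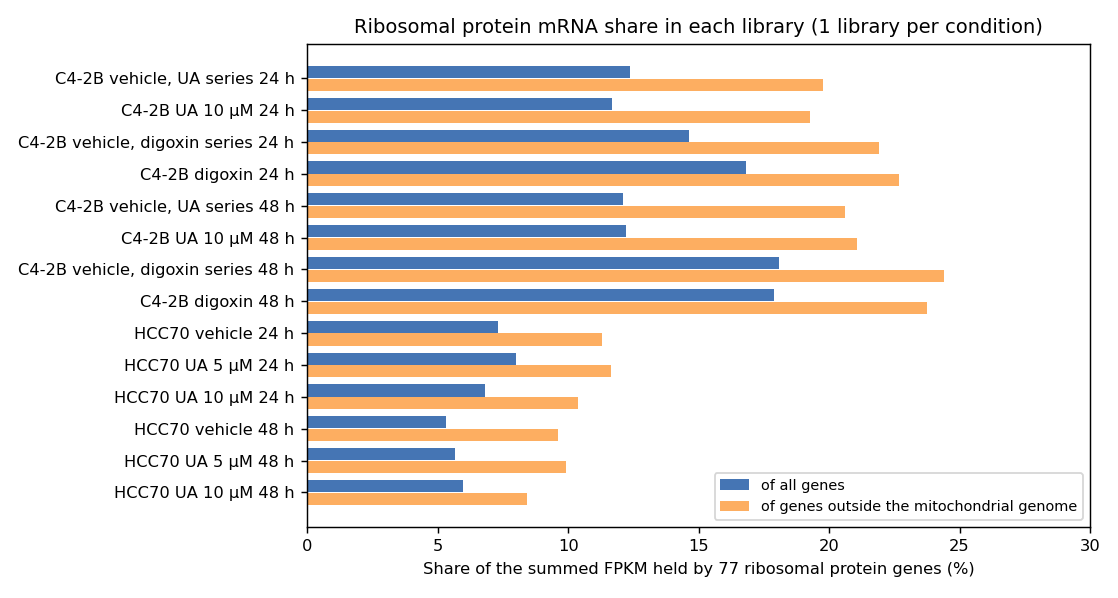
Share of the summed FPKM (percent, horizontal axis) that the 77 ribosomal protein genes held in each of the 14 libraries, of all genes (blue) and of genes outside the mitochondrial genome (orange). Bars are single libraries; HCC70 libraries sit between 5.34 and 8.01% of all genes and C4-2B libraries between 11.7 and 18.1%.

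The share of the summed FPKM held by the 77 genes gives the same contrast in each library. In the UA series of C4-2B it was 12.4% in vehicle and 11.7% with UA at 24 h, and 12.1 and 12.2% at 48 h. In the digoxin series it was 14.6% in vehicle and 16.8% with digoxin at 24 h, and 18.1 and 17.9% at 48 h. In HCC70 cells it was 7.31% in vehicle, 8.01% with 5 µM and 6.82% with 10 µM UA at 24 h, and 5.34, 5.68 and 5.98% at 48 h. The vehicles of 48 and 24 h thus differed by more than a treated library differed from its vehicle in the HCC70 line. Without the mitochondrial genes the HCC70 shares at 48 h ran the other way at the higher dose, from 9.60% in vehicle and 9.92% at 5 µM to 8.40% at 10 µM.

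With 10 µM UA the ribosomal protein mRNAs of C4-2B cells stayed close to their vehicle. At 24 h 63 of 77 members lay below the vehicle (52.4% of all genes), with a median log2 ratio of −0.078 beside −0.013 over all 12220 genes. At 48 h 54 members lay above it (52.0% of all genes), with a median of 0.033 beside 0.011. No member was at least 1.5-fold higher at 24 h (3.72% of all genes) or 48 h (4.92%), or lower (3.34 and 3.0%). Both medians kept their sign when centred or without mitochondrial genes, but against the digoxin-series vehicle they were −0.20 and −0.43. Less the median of genes of like transcript length the value at 24 h was −0.023. That length is of the GENCODE canonical transcript, which ran from 295 to 7573 bases over the members. Whether these are the isoforms expressed was not checked, which limits every value set by transcript length.

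The member farthest from its vehicle in this treatment was RPL22, an RNA-binding 60S protein that ribosomes can lack. At 24 h it was at 98.0 FPKM in vehicle and 70.7 with UA (−0.47). The order was reversed at 48 h, with 74.5 FPKM in vehicle and 99.2 with UA (0.41). Beside the digoxin-series vehicle, at 157 and 215 FPKM at 24 and 48 h, RPL22 was lower with UA at both times. The next lowest at 24 h were RPS23, of the decoding centre (836 to 685 FPKM, −0.29), and RPL23A, of the exit tunnel (516 to 427, −0.27). The highest at 24 h were RPS25 (0.12), RPL30 (0.12) and RPL29 (0.11). At 48 h RPS12 (438 to 535 FPKM, 0.29) and RPL36A (0.21) followed RPL22, and RPL24 (−0.12), RPS25 (−0.10) and RPS26 (−0.10) were lowest. RPS25 thus stood among the highest members at 24 h and among the lowest at 48 h.

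Digoxin at 100 nM was accompanied by higher values at 24 h. In the digoxin series 72 of 77 members were above the vehicle (61.8% of all genes), with a median of 0.24, and the median of all 11895 genes was itself 0.12. Less the median of genes of like transcript length, an alternative added after seeing the data, the median was 0.011, with 41 of 77 above 0. Relative to the median of all genes the members lay at 0.12, and 64 of 77 were above it. Leaving the mitochondrial genes out of the sum lowered their median to 0.076. Mitochondrial genes took 33.1% of the summed FPKM in this vehicle and 25.9% with digoxin, and that rescaling is the only check made of their part. No member was at least 1.5-fold higher (10.9% of all genes) or lower (5.99%).

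RPS29, a small zinc-binding 40S protein, was the highest at 24 h (642 FPKM in vehicle, 948 with digoxin, 0.56). RPS12, a 40S protein, came next (566 and 825, 0.54), then RPL13, a 60S protein (1391 and 1948, 0.49). RPL23 (2107 and 1945, −0.12), RPL36A (−0.07) and RPS24 (−0.03) were lowest, and only 5 members in all were below the vehicle. At 48 h the members divided almost evenly, 40 above and 37 below the vehicle (48.4 and 51.4% of all genes), and the median of 0.0091 turned to −0.017 after centring on a trimmed mean and to −0.052 without mitochondrial genes. RPS29 was again highest (813 and 1108 FPKM, 0.45), followed by RPS19, mutated in Diamond-Blackfan anaemia (854 and 1139, 0.41), and RPL28 (1616 and 2124, 0.39). RPL10A of the L1 stalk (1056 and 829 FPKM, −0.35) and RPL22 (215 and 171, −0.33) were lowest, and 0 members were past 1.5-fold in either direction (9.28% of all genes higher, 11.2% lower).

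The spread between members also differed between the treatments of C4-2B. The SD of the log2 ratio over the 77 genes was 0.096 and 0.094 with UA and 0.14 and 0.20 with digoxin, while that of all genes was 0.45 and 0.50 with UA and 0.55 and 0.62 with digoxin. The members are abundant mRNAs, and the part of abundance in their narrow range was not tested.

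UA at 5 µM left the members of HCC70 cells slightly above the vehicle at both times. At 24 h 55 of 77 members were above it (61.7% of all genes), with a median of 0.069 that shrank to 0.0093 relative to the median of all genes (0.060). At 48 h 55 were above it (40.9% of all genes), with a median of 0.080 while the median of all genes was −0.054, so that 62 members lay above the latter. Above the vehicle at both times were 42 members (25.4% of genes compared at both times), a count that became 28 without mitochondrial genes. No member was past 1.5-fold, where 3.82% of all genes were higher at 24 h and 3.82% at 48 h, and 2.18 and 4.83% lower.

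RPS29 was highest at 24 h and among the 3 highest at 48 h, at 323 FPKM in vehicle and 479 with 5 µM UA at 24 h (0.57), then at 305 in vehicle and 371 in the treated library of 48 h (0.28). At 24 h RPS21, of the 40S subunit, was also among the 3 highest (339.7 to 453 FPKM, 0.41), and RPL31 (−0.16), RPL7A (−0.15) and RPS6, the substrate of S6 kinase (−0.12), were lowest. At 48 h the highest were RPL36 (146 to 179.7 FPKM, 0.30), RPS29 and RPS27 (1649 to 1976, 0.26). The lowest were RPL23A (226 to 179.7 FPKM, −0.33), RPL38 (533 to 437, −0.28) and RPL23 (231 to 203, −0.18). RPL38 had been above its vehicle at 24 h, by 0.26.

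With 10 µM UA the members lay below the HCC70 vehicle at 24 h. Of 77 members 63 were lower (58.6% of all genes), with a median of −0.13 beside −0.069 over all genes, and the median lay between −0.15 and −0.064 when centred or without mitochondrial genes, but at −0.028, with 32 of 77 above 0, less the median of genes of like transcript length. None was at least 1.5-fold higher (6.28% of all genes) or lower (7.06%). Lowest were RPL36 (231 to 177 FPKM, −0.38), RPL23A (210.0 to 162, −0.38) and RPL6 (336 to 264, −0.35). Highest were RPS21 (339.7 to 442 FPKM, 0.38), RPS29 (323 to 386, 0.26) and RPS27 (1979 to 2336, 0.24), which were also above the vehicle with 5 µM.

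At 48 h with 10 µM UA the members spread apart, and this is the only treated library in which any was past 1.5-fold. As deposited, 52 of 77 members were above the vehicle (38.3% of all genes), with a median of 0.082 that became −0.27 when mitochondrial genes were left out of the sum. The median of all 11858 genes was −0.20 as deposited and −0.56 without mitochondrial genes. The members lay 0.29 above it, with 66 of 77 above that median. Rescaling shifts the members and all genes alike, so it cannot change this distance and is no check of it. The SD over the members was 0.31, against 0.90 over all genes. At least 1.5-fold higher were 3 members (13.6% of all genes) and at least 1.5-fold lower 2 (28.1%), shares well under those of all genes. Relative to the median of all genes 14 members were at least 1.5-fold higher and 0 lower, and without mitochondrial genes 0 were higher and 9 lower. The shares of all genes were not counted in these other scalings, so these counts show only how the calls move with the scaling. At 2-fold 0 members were counted (6.79% of all genes higher, 13.3% lower). In this library FTH1, the ferritin heavy chain gene, took 5.67% of the summed FPKM beside 0.883% in vehicle, and mitochondrial genes 28.9% beside 44.4%. The basal markers were split. KRT5 was at 296 FPKM beside 761 in vehicle and KRT14 at 2.5 beside 17.7. KRT6B was at 440 FPKM beside 424 in vehicle and EGFR at 43.4 beside 38.4. Beyond the rescaling, the part of all these genes in the values of the members was not tested.

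The 3 higher members were RPL13A, RPL28 and RPS27. RPL13A, a 60S protein that also acts in the interferon-γ translation inhibitor complex, was at 826, 838 and 783 FPKM with vehicle, 5 and 10 µM at 24 h, and the same conditions of 48 h gave 539, 637 and 878 (0.70 for 10 µM). RPL28, a 60S protein, was at 1987, 1968 and 1825 FPKM at 24 h and then 1112, 1270.1 and 1802 at 48 h (0.70). RPS27, a zinc-finger 40S protein, was at 1979, 2634 and 2336 FPKM at 24 h and then 1649, 1976 and 2606 at 48 h (0.66). In each of these the 48 h values ascended from vehicle over 5 µM to 10 µM. For RPL13A and RPL28 the 10 µM library at 48 h lay near the level of the libraries of 24 h, while the vehicle of 48 h lay below it. Without mitochondrial genes their ratios were 0.36, 0.35 and 0.31, still above 0 but under 1.5-fold.

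RPL3, a core 60S protein close to the peptidyl transferase centre, was just under the threshold. Its values were 398, 506 and 438 FPKM at 24 h and 366, 420.4 and 546 at 48 h (0.58 for 10 µM). RPL10, a 60S protein added late in assembly, was close to it at 1059, 1157 and 1558 FPKM at 48 h (0.56). RPL10 was above its vehicle in all 4 UA libraries of HCC70, by 0.38 and 0.13 with 5 µM and 0.21 and 0.56 with 10 µM, and this sign held under each scaling. RPL3 did the same, with 0.35, 0.20, 0.14 and 0.58.

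The 2 lower members were RPS26 and RPL22. RPS26, a 40S protein at the mRNA exit channel, was at 272, 323 and 229 FPKM at 24 h and then 195, 179.9 and 115 at 48 h (−0.76 for 10 µM). RPL22 was at 204, 202 and 179 FPKM at 24 h and then 172, 156 and 113 at 48 h (−0.60). RPL6, a 60S protein that binds MDM2, followed just under the threshold with 250.1, 235 and 167 FPKM at 48 h (−0.58), then RPL23 with 231, 203 and 161 (−0.51). All of these were lowest in the 10 µM library at both times, and their sign at 10 µM did not change with the scaling.

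**Figure D2:**
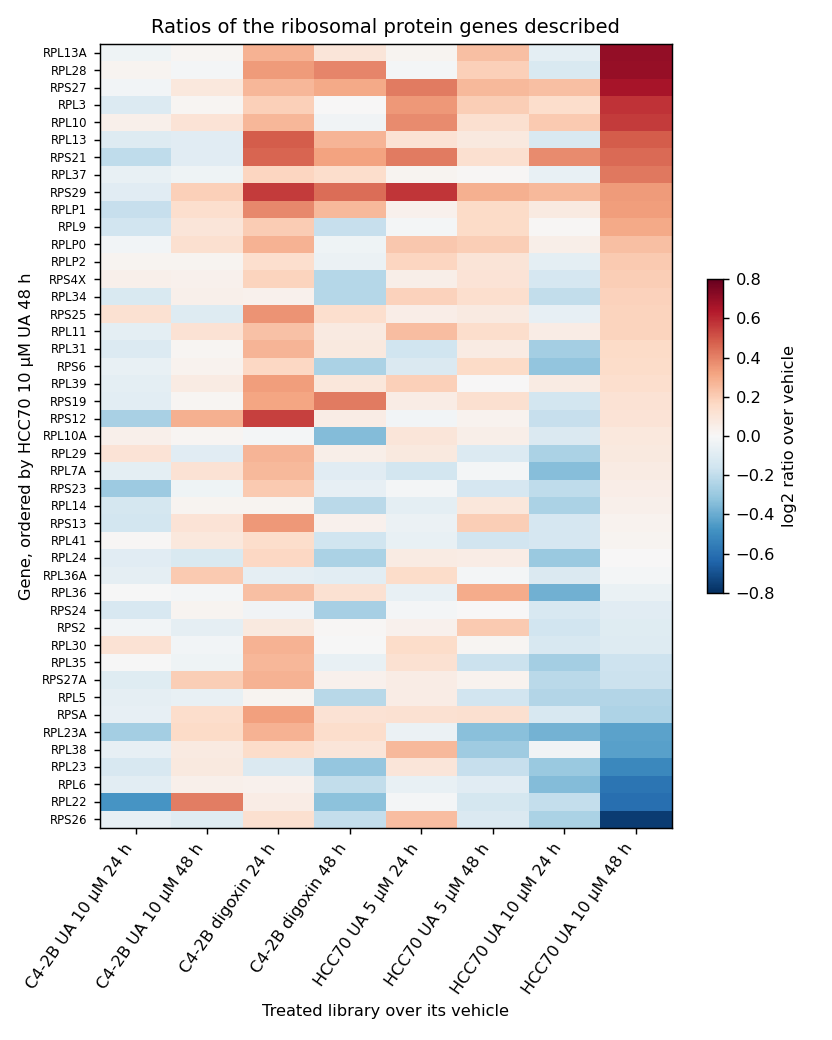
Log2 ratio over vehicle (colour, red higher and blue lower) of 45 of the 77 ribosomal protein genes, those described by name (rows, ordered by HCC70 10 µM UA at 48 h) in the 8 treated libraries (columns). The strongest colours are in the last column, from RPL13A (0.70) to RPS26 (−0.76); RPS29 is red in all columns but C4-2B UA at 24 h (−0.09).

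Counting at 1.2-fold shows how the members divided in the libraries where none reached 1.5-fold. In C4-2B with UA 4 members were lower at 24 h (13.4% of all genes) and 0 higher (13.9%), and at 48 h 2 were higher (16.5%) and 0 lower (12.1%). With digoxin 32 were higher at 24 h (34.7%) and 0 lower (17.1%), and 11 were higher at 48 h (25.5%) and 5 lower (28.3%). In HCC70 with 5 µM UA 8 were higher at 24 h (17.1%) and 0 lower (8.93%), and at 48 h 2 were higher (12.7%) and 2 lower (21.0%). With 10 µM 1 was higher at 24 h (17.6%) and 13 lower (26.6%), and 20 were higher at 48 h (24.8%) and 8 lower (46.4%). The share of members past 1.2-fold was below that of all genes in each direction, except for higher values with digoxin at 24 h and with 10 µM UA at 48 h.

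The doses of UA in HCC70 were compared directly. At 24 h 75 of 77 members were lower with 10 than with 5 µM (66.8% of all genes), with a median of −0.21 beside −0.13 over all genes. The members' median stayed below 0 under each scaling, at −0.082 when centred on the median of all genes. At 48 h 44 were higher with 10 µM (41.0%), with a median of 0.040 beside −0.12 over all genes. The members' median became −0.27 without mitochondrial genes. RPS26 was the only member at least 1.5-fold lower there (179.9 and 115 FPKM, −0.64, 21.6% of all genes).

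The values of RPS29 are set side by side because it was among the 3 highest members in 5 of the 8 comparisons. Its ratios were −0.09 and 0.19 with UA in C4-2B, 0.56 and 0.45 with digoxin, 0.57 and 0.28 with 5 µM UA in HCC70, and 0.26 and 0.34 with 10 µM. The last of these became −0.0079 without mitochondrial genes. Comparisons of 5 and 10 µM at 1 time share a vehicle library, in which RPS29 was at 323 FPKM at 24 h and 305 at 48 h. RPS29 has the shortest canonical transcript of the members, at 295 bases, and the part of transcript length in its ratios was not tested for this gene alone.

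Among the proteins with roles outside the ribosome, RPL5 and RPL11 form the 5S particle that inhibits MDM2. RPL11 was at 633, 697 and 717 FPKM in HCC70 at 48 h (0.18 for 10 µM) and RPL5 at 498, 448 and 423 (−0.23), so that the partners lay on opposite sides of their vehicle, the sign of RPL11 depending on the scaling. The stalk proteins, which recruit translation factors, lay together at 0.24 for RPLP0, 0.34 for RPLP1 and 0.21 for RPLP2 in that library, all with another sign (−0.11, −0.012 and −0.14) without mitochondrial genes. RPSA, also known as a laminin receptor, was at −0.24, and RPS27A at −0.17, or 0.030 relative to the median of all genes. RPS6 was at 0.15, the X-linked RPS4X at 0.20, RPL39 of the exit tunnel at 0.14 and RPL41 at 0.024, all under 1.2-fold and all below 0 without mitochondrial genes.

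**Figure D3:**
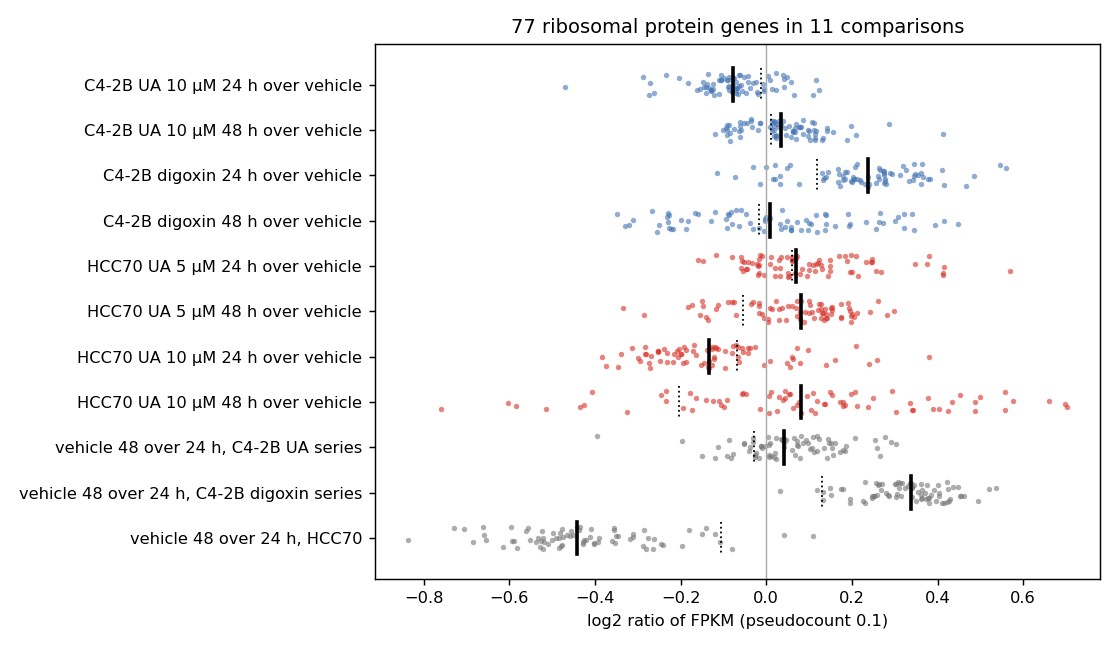
Log2 ratio of FPKM (horizontal axis) of the 77 ribosomal protein genes, 1 point per gene, in 8 treated-over-vehicle comparisons (blue C4-2B, red HCC70) and in 3 comparisons of vehicles at 48 over 24 h (grey). Solid bars are the members' medians and dotted bars those of all genes; the HCC70 vehicles show the median farthest from 0 (−0.44).

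The vehicles show how far untreated libraries of a line lie apart, with time included. In HCC70 the vehicle of 48 h was below that of 24 h in 75 of 77 members (61.8% of all genes), with a median of −0.44 beside −0.11 over all genes, and 11 members were at least 1.5-fold lower (9.34% of all genes). RPL28 had the lowest ratio (−0.84), and RPL38 (0.04) and RPL23A (0.11) were the only members above 0. The 5 µM libraries also had lower values at 48 h, in 77 of 77 members (70.9% of all genes, median −0.45), and the 10 µM libraries in 59 (66.5%), with a median of −0.20 that was 0.035 once centred on all genes. In the digoxin series of C4-2B all 77 members were higher in the vehicle of 48 h than in that of 24 h (65.7% of all genes), with a median of 0.34 beside 0.13 over all genes and 0.19 without mitochondrial genes. In the UA series the median was 0.042, with 54 of 77 higher (44.9%). Between treated C4-2B libraries of 48 and 24 h the members were higher in 77 of 77 with UA (49.8% of all genes, median 0.17) and in 66 with digoxin (52.6%, median 0.10). Each of these vehicles enters a treated comparison, so the ratio of a treated library moves with it.

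The vehicles of the 2 C4-2B series differed more strongly between members. At 24 h the digoxin-series vehicle had 9 members at least 1.5-fold higher (16.5% of all genes) and 2 lower (16.1%) than the UA-series vehicle, with an SD of 0.40. At 48 h it had 28 higher (28.1%) and 3 lower (14.6%), with an SD of 0.49. RPL34 was the highest (515 and 1232 FPKM at 24 h, 1.26, and 528 and 1533 at 48 h, 1.54) and RPL28 the lowest (3189 and 1580 FPKM, −1.01, and 3412 and 1616, −1.08). These ratios followed the GC content of the canonical transcript, with a Pearson r of −0.63 over the 77 genes at both times and −0.52 and −0.51 over all genes, as a description across genes of the same 2 libraries. The files of the digoxin series list 26237 gene IDs and those of the UA series 35069. A difference of the series in library preparation, sequencing or data processing cannot be told apart from one in the cells.

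**Figure D4:**
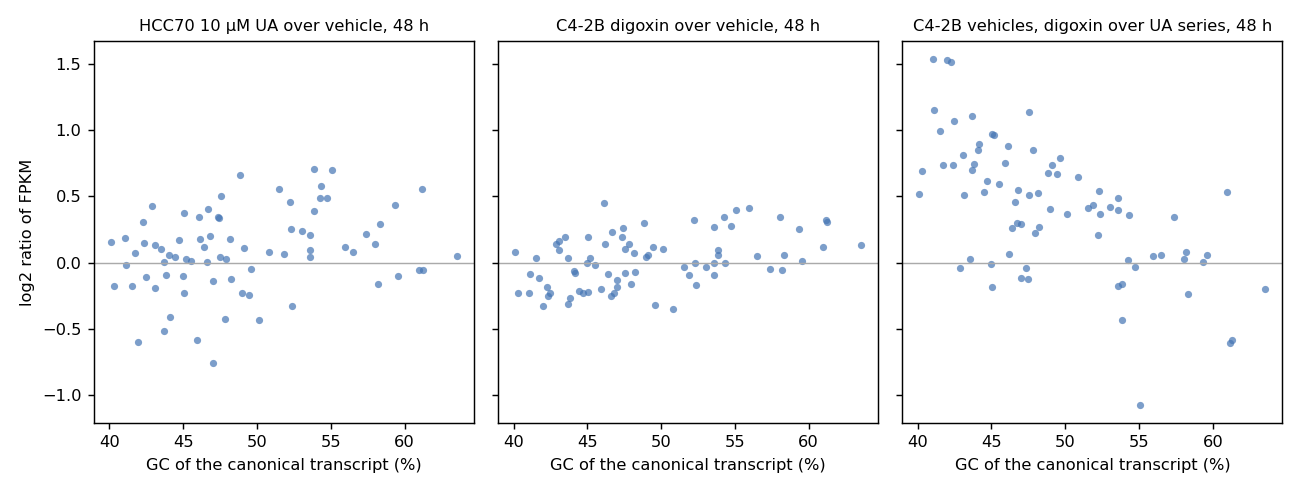
GC content of the GENCODE canonical transcript (percent, horizontal axis) and log2 ratio (vertical axis) of the 77 ribosomal protein genes, 1 point per gene, for HCC70 10 µM UA over vehicle at 48 h, C4-2B digoxin over vehicle at 48 h and the C4-2B vehicle of the digoxin over that of the UA series at 48 h. The points descend with GC content in the last panel (r of −0.63) and ascend weakly in the others (0.28 and 0.44).

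Within treated comparisons the relation with GC content was weaker and of either sign. Over the 77 genes r was 0.43 and −0.36 with UA in C4-2B at 24 and 48 h, 0.26 and 0.44 with digoxin, 0.25 and 0.19 with 5 µM UA in HCC70, and 0.15 and 0.28 with 10 µM. The TOP-like call rests on a single annotated start per gene, so TOP mRNAs may be among the rest. Members with a TOP-like start and the rest lay close in HCC70 at 10 µM and 48 h, with medians of 0.11 over 42 and 0.10 over 20 genes. The 60S and 40S members had medians of 0.074 and 0.11 there, and the 38 members lowest and highest in level 0.049 and 0.14. With digoxin at 24 h the 60S members had a median of 0.20 and the 40S members of 0.28. The subunits lay on opposite sides of the vehicle in 1 of the 8 comparisons, digoxin at 48 h, with medians of −0.024 for 60S and 0.043 for 40S.

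Genes of ribosome assembly and of RNA polymerase I had lower medians than the ribosomal protein genes in HCC70 cells with 10 µM UA. Of 48 ribosome assembly factors 45 were below the vehicle at 48 h, where 38.3% of all genes were above it. Relative to the median of all genes 38 were below 0. At least 1.5-fold lower than the vehicle were 33 (28.1% of all genes). Their median was −0.86 beside 0.082 for the ribosomal protein genes. UTP20, of the early 40S precursor (2.02 to 0.30 FPKM, −2.41) was lowest. NOP2, an rRNA methyltransferase, was at 29.0 FPKM in vehicle and 16.1 with UA at 24 h (−0.85) and at 21.8 and 9.31 at 48 h (−1.22). NOP16, RRS1 and WDR43 were also at least 1.5-fold lower at both times, with RRS1 at −0.82 and −1.81. RNA polymerase I genes had a median of −0.52, with 7 of 15 at least 1.5-fold lower (28.1% of all genes). Among them the core subunit POLR1B was so at both times (−0.65 and −1.85). All medians of this paragraph kept their sign under each scaling, except that of the ribosomal protein genes.

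**Figure D5:**
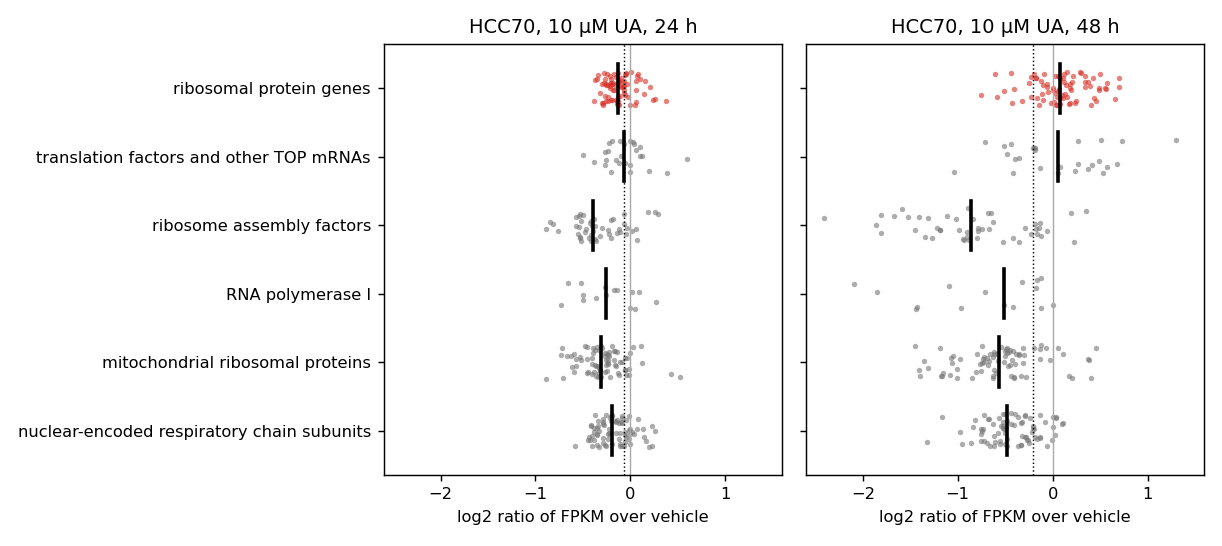
Log2 ratio over vehicle (horizontal axis) in HCC70 cells with 10 µM UA at 24 h (left) and 48 h (right), 1 point per gene, for the ribosomal protein genes (red) and 5 other lists (grey). Solid bars are list medians and the dotted line is the median of all genes; at 48 h the ribosomal protein genes (0.082) and the other TOP mRNAs (0.059) lie to the right of the other lists (−0.86 to −0.48).

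Mitochondrial ribosomal protein genes, which code for the separate ribosome of the organelle, had a median of −0.56 in that library, with 38 of 78 at least 1.5-fold lower (28.1% of all genes). Nuclear-encoded respiratory chain subunits had a median of −0.48 beside −0.20 over all genes, and 22 of 77 were at least 1.5-fold lower, close to the share of all genes. Translation factors and other TOP mRNAs lay with the ribosomal protein genes by their median (0.059 over 27 genes, or −0.29 without mitochondrial genes) but over a wider range. TPT1, a TOP mRNA of the translationally controlled tumour protein, was at 826, 1076 and 2042 FPKM with vehicle, 5 and 10 µM at 48 h (1.31 for 10 µM). EEF1A1 was at 850.5, 999 and 1411 FPKM (0.73) and EEF2 at 317, 354 and 508 (0.68), and EEF2 was also at least 1.5-fold higher at 24 h (0.60). NPM1, the nucleolar chaperone with a TOP mRNA, was at 249, 205 and 121 FPKM (−1.04).

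Of 16 regulators of growth compared in the same library, 6 were at least 1.5-fold higher (13.6% of all genes) and 1 lower (28.1%), with a median of 0.40. Without mitochondrial genes this median was 0.054, with 8 of 16 below 0. The list mixes activators and inhibitors of growth, so its median has no direction to read. DDIT4, an inhibitor of mTOR complex 1, was at 18.4, 66.7 and 272 FPKM at 48 h (3.87 for 10 µM) and SESN2, another such inhibitor, at 7.16, 13.5 and 33.1 (2.19). MXD1, an antagonist of MYC at shared sites, was at 3.09, 4.47 and 19.3 FPKM (2.61), the cell cycle inhibitor gene CDKN1A at 86.6, 141 and 373 (2.11), and MYC itself at 45.7, 44.5 and 57.9. In C4-2B cells SESN2 was at least 1.5-fold higher with UA at both times (0.95 and 0.71) and CDKN1A with digoxin (1.66 and 1.83), where the medians of the members lay between −0.078 and 0.24. DDIT4 was at 29.4 FPKM in vehicle and 60.6 with digoxin at 24 h (1.04), and at 48 h it was on the other side of its vehicle, with 238 and 55.8 (−2.09). With digoxin at 24 h, where 61.8% of all genes lay above the vehicle and their median was 0.12, 39 of 48 assembly factors lay below it, with a median of −0.26. Of the respiratory chain subunits 76 of 77 lay above it, with a median of 0.34.

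The paralogs RPL22L1 and RPL39L, outside the naming rule, differed more between the lines than between treated libraries and their vehicles. RPL22L1, the paralog of RPL22, was at 307 to 962 FPKM in C4-2B and at 4.09 to 9.88 in HCC70. RPL39L, a paralog of RPL39, was listed at 0 in 7 of 8 C4-2B libraries and at 0.10 in the other, and was at 24.7 to 67.3 FPKM in HCC70. With 10 µM UA at 48 h RPL39L was at 24.7 FPKM beside 47.9 in vehicle (−0.95), RPL22L1 at 4.09 beside 5.98 (−0.54) and RPS27L, a p53 target, at 12.3 beside 20.4 (−0.73). RPS27L was at 147 FPKM in the digoxin-series vehicle and 240.3 with digoxin at 48 h (0.71). FAU, which encodes the 40S protein eS30, was at −0.36 with 10 µM UA at 48 h and RACK1, a 40S scaffold, at −0.03. At 24 h with digoxin they were at 0.38 and 0.07.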

How the data were processed

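Processed values of 14 RNA-seq libraries, made from total RNA with TruSeq kits, were used. The authors estimated FPKM with Cufflinks on hg38, and the processing notes also name BWA and Bowtie. Versions and read totals are not given in the sources used here. The deposited FPKM values have 2 decimals. Of the digoxin series, 4 files state no unit and were read as FPKM. Entries of a symbol were summed, ratios used a pseudocount of 0.1 and genes above 1 FPKM in either library, and 1.5-fold was the size counted. With 1 library per condition no test was made. GC content and length of the canonical transcript and gene positions came from GENCODE v44, and promoters from RefSeq (GRCh38.p14). Some canonical transcripts are long, such as those of RPL37 (7573 bases) and RPL14 (7136). Their GC content and length may not be those of the mRNA measured. Named genes are the 3 highest and 3 lowest members of each comparison, the 5 highest and 5 lowest by level in each line, 14 members fixed by role, and listed genes past 1.5-fold at both times of a treatment; some genes that these rules name are not reported here. Others, such as RPL23, RPL34, UTP20, TPT1, EEF1A1, NPM1, MYC, FTH1 and the paralogs, were chosen after their values were seen. The members, lists and rules were chosen with earlier results of these data known. Counting was tested on simulated data with planted changes. Python 3.11.15 was used with matplotlib 3.10.9, scipy 1.17.1, pandas 2.3.3 and numpy 2.4.6. Alternatives were pseudocounts of 1 and 0.01, no filter or 5 FPKM, centring on the median of all genes or on a mean trimmed by 30% at each end, rescaling without mitochondrial genes, using the highest entry of each symbol, counting at 1.2- and 2-fold, and the vehicle of the other series. Subtracting the median of genes in the same of 20 bins of GC content or transcript length was added after seeing the data.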

Additional observations from a re-analysis of the deposited data

Results flagged for a closer look

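Results that lay on opposite sides of the vehicle in a pair of conditions are given here, and none of these differences was tested. The median log2 ratio of the ribosomal protein genes was −0.078 with UA in C4-2B at 24 h and 0.033 at 48 h. In HCC70 with 10 µM UA it was −0.13 at 24 h and 0.082 at 48 h, where the latter became −0.27 without mitochondrial genes. RPL22 in C4-2B with UA was at −0.47 at 24 h and 0.41 at 48 h. RPL22 at 48 h with 10 µM UA was at 0.41 in C4-2B and −0.60 in HCC70. These RPL22 signs held under each scaling against the own vehicle, but not all with the vehicle of the other series. The digoxin-series vehicle of C4-2B was at 157 and 215 FPKM at 24 and 48 h, above the 70.7 and 99.2 with UA. Against it the sign in C4-2B at 48 h was thus negative. RPL22 has the lowest level of the members in C4-2B, between 70.7 and 215 FPKM.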

How the results depend on the processing

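No paired analysis was possible because each condition has 1 library and the labels give no replicate numbers, and for the same reason no library was left out. Both other pseudocounts, both other filters and the highest entry of a symbol moved no median by over 0.1 and no 1.5-fold count. Against the vehicle of the other series, the medians for UA in C4-2B were −0.20 at 24 h and −0.43 at 48 h. At least 1.5-fold higher were 2 members at 24 h and 1 at 48 h, and 16 and 23 were lower. For digoxin the medians were 0.34 and 0.39, with 21 members higher and 1 lower at 24 h and 26 higher and 1 lower at 48 h. For digoxin at 24 h the median was 0.12 centred on all genes, 0.10 on the trimmed mean, 0.076 without mitochondrial genes, 0.13 with GC bins and 0.011 with length bins. For 10 µM UA in HCC70 it was −0.028 at 24 h with length bins. At 48 h it was 0.29 centred on all genes (14 higher, 0 lower), 0.20 on the trimmed mean (9 higher, 1 lower), −0.27 without mitochondrial genes (0 higher, 9 lower), 0.30 with GC bins (13 higher, 0 lower) and 0.28 with length bins (13 higher, 0 lower). The shares of all genes past 1.5-fold were counted as deposited and against the own vehicle only. The counts under the settings above thus have no share beside them and say nothing particular to the members. The cause of these shifts was not tested, beyond each setting's own construction. At 1.2-fold the counts with UA in C4-2B were 4 lower at 24 h and 2 higher at 48 h. With digoxin 32 were higher at 24 h, and 11 were higher and 5 lower at 48 h. With 5 µM UA in HCC70 8 were higher at 24 h, and 2 were higher and 2 lower at 48 h. With 10 µM UA 1 was higher and 13 lower at 24 h, and 20 were higher and 8 lower at 48 h. At 2-fold 0 members were higher or lower in the latter. The depth of the libraries is unknown, so counting error cannot be given.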
